A study of Mus musculus with 6 samples.

Results

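The genes described here are 51 enzymes of the urea cycle and of amino acid breakdown, measured in the liver of mice with the Lmna G609G allele. They were taken as the probe sets that the platform annotation gives to a single gene symbol on a fixed list of names. Of the 51, 47 had such a probe set and were tested, among 16148 genes tested in all. Ass1, which joins citrulline to aspartate in the urea cycle, was represented only by probe sets that the annotation shares with the pseudogene Gm5424, and Gls2, Sds and Sdsl were not listed, so these 4 have no value here. The arrays came from 3 knock-in mice with the Lmna G609G allele on both chromosomes (replicates 1, 3 and 5) and 3 wild-type Lmna +/+ mice (replicates 2, 4 and 6). All were female C57BL/6 mice, 3 months old, and both genotypes had been without food for 6 h when killed. The allele changes a base without changing the amino acid and leads to aberrant splicing of the lamin A transcript, and it is a germline allele, present in every cell of the animal. The comparison asked how liver transcripts differ between these mice, with 1 array per mouse.

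Hepatocytes take the amino groups off amino acids, turn the nitrogen into urea and send the carbon skeletons to glucose, ketone bodies or the citric acid cycle. Ammonia and bicarbonate enter the urea cycle in mitochondria as carbamoyl phosphate, the second nitrogen enters from aspartate in the cytosol, and arginase then releases urea. Each amino acid has its own route, usually controlled at an early step, and many of these enzymes are known to be induced by fasting, glucagon and glucocorticoids.

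The 6 arrays separated by genotype, with the first principal component holding 74.9% of the variance. Knock-in replicate 3 lay nearest to the wild-type arrays, at -24.3 on that component, against -46.2 and -52.1 for the other knock-in mice and 38.9 to 44.8 for the wild-type mice. Of the hepatocyte markers with a tested probe set, 1 of 6 was called higher (Hnf4a) and 0 lower. Their summed intensity ran from 76243 to 82386 in knock-in and from 75159 to 77430 in wild-type mice. That sum includes Hnf4a, at 8948, 8707 and 9461 in knock-in and 4529, 5192 and 5479 in wild-type mice. The other 5 were not called. Markers of Kupffer cells and macrophages summed to 2813 to 5086 in knock-in and 4273 to 7368 in wild-type mice, with 0 of 8 called higher and 1 lower. Endothelial markers summed to 4188 to 5971 in knock-in and 4963 to 5342 in wild-type mice, with 1 of 6 higher and 3 lower, and those of stellate cells and fibroblasts to 7484 to 8887 in knock-in and 6650 to 7610 in wild-type mice, with 1 of 7 higher and 1 lower. Most of the stellate sum was Dcn (called higher), at 6731, 6736 and 5978 in knock-in and 4891, 4225 and 4704 in wild-type mice. Lrat, called lower, read 312, 441 and 247 in knock-in and 876, 719 and 653 in wild-type mice. The other 5 were not called, so the sum does not give a direction for the cell type. Neutrophil markers summed to 386 to 425 in knock-in and 273 to 312 in wild-type mice (3 of 5 higher). Lymphocyte markers summed to 345 to 368 in knock-in and 354 to 428 in wild-type mice (1 of 3 tested lower), and cholangiocyte markers to 386 to 411 in knock-in and 385 to 411 in wild-type mice (0 of 4 called). Markers of kidney tubule and pancreas summed to 371 to 412 in knock-in and 393 to 417 in wild-type mice (0 of 5 called). The part of these cell types in the results below was not tested, and in a whole liver fewer cells of a type cannot be told apart from less RNA per cell.

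Breakdown genes moved in both directions. Of the 47 tested, 17 were higher and 13 lower in knock-in liver (limma, Benjamini-Hochberg adjusted p below 0.05), and 17 were not called. That is 63.8% of the genes called, 36.2% higher and 27.7% lower, beside 26.7% of all tested genes called, 13.0% higher and 13.7% lower. Over all tested probe sets, 25.9% were called, 15.0% higher and 10.9% lower. The genes of the list are bright ones. All but Bckdk had a mean intensity of at least 536. Of the 4156 tested genes that bright, 46.2% were called, 21.9% higher and 24.4% lower. The same shares are the background for the counts of single routes below. The median log2 change of the list was -0.05, against 0.00 over all tested genes. The knock-in and wild-type values did not overlap at 37 of the 47 genes, beside 42.9% of all tested genes. Only Acmsd, Cth and Got1 rose and Otc, Csad and Haao fell by at least 2-fold, which is 6.38% in each direction, against 2.30% higher and 3.46% lower of all tested genes. Without knock-in replicate 1, 9 genes of the list were higher, and without wild-type replicate 2 or 6 it was 11. When each array was centred on its median, the share of all calls that were higher was 47.8%, against 57.8% as deposited, and the list had 14 higher and 14 lower genes.

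**Figure D1:**
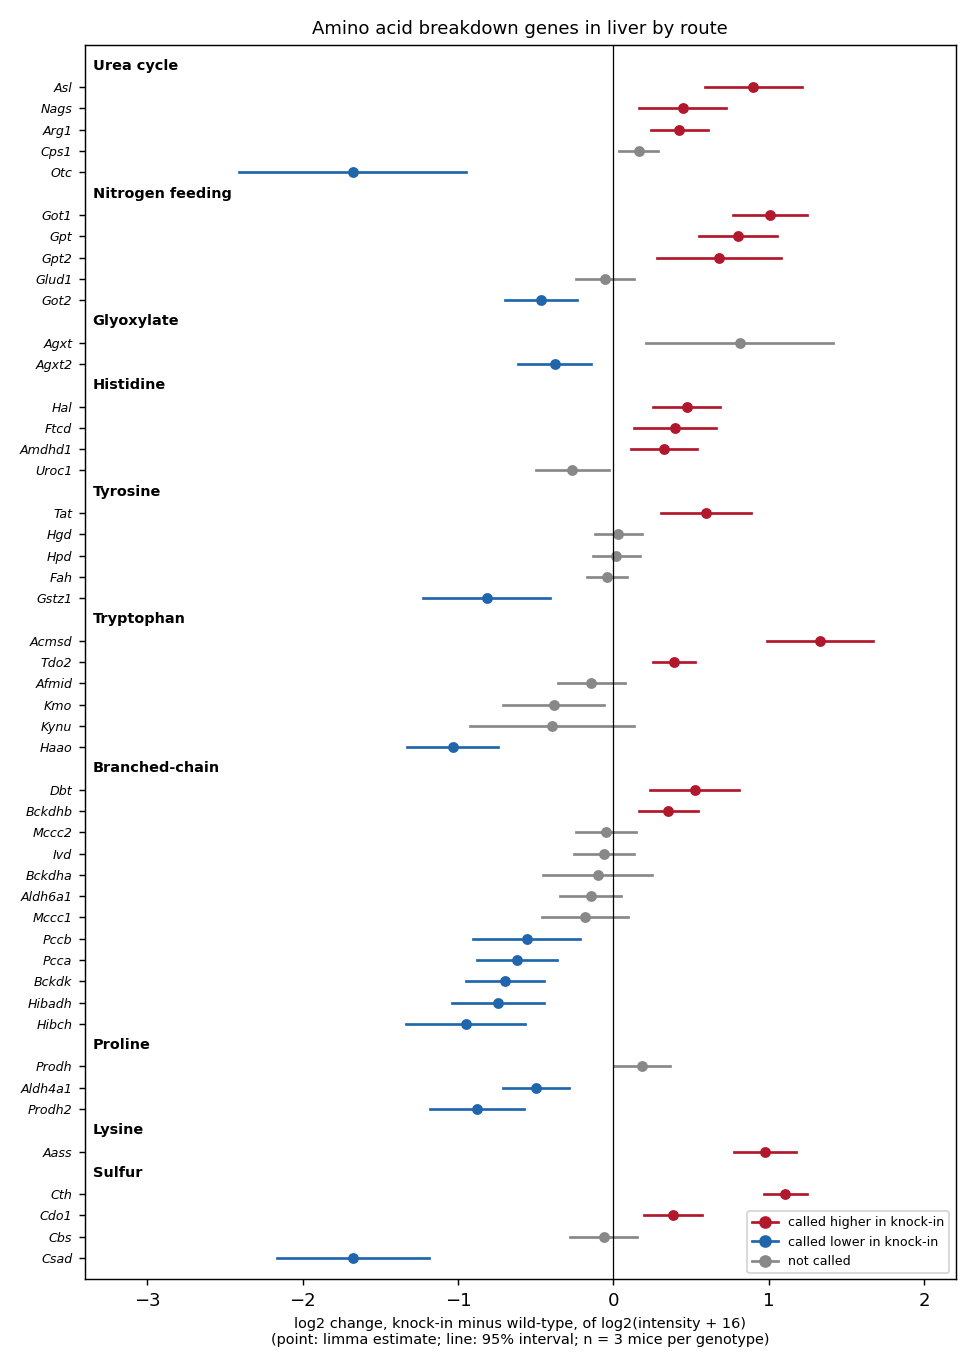
Log2 change of each tested gene, knock-in minus wild-type (x axis, on the scale of log2(intensity + 16)), grouped by route down the page, with 95% intervals from limma and 3 mice per genotype. Red genes were called higher (17), blue genes lower (13) and grey genes were not called (17), and most routes hold genes of more than 1 colour.

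In the urea cycle, 3 of 5 tested genes rose and Otc fell. Otc, ornithine transcarbamylase, makes citrulline from ornithine and carbamoyl phosphate in mitochondria. It read 1253, 2089 and 761 in knock-in mice, against 4102, 4163 and 3938 in wild-type mice, and so changed by -1.68 ± 0.31 in log2 (standard error, 3 mice of each genotype; 3.20-fold lower, limma adjusted p = 0.00805). The wild-type mice lay close together and the knock-in mice spread widely, all of them below wild-type. Asl, argininosuccinate lyase, which releases arginine and fumarate in the cytosol, read 10019, 9030 and 10226 in knock-in and 4225, 6071 and 5535 in wild-type mice (log2 change 0.90 ± 0.13; limma adjusted p = 0.00350). The genotypes did not overlap. Arg1, the arginase that yields urea, averaged 8006 ± 460 in knock-in and 5966 ± 379 in wild-type mice (SD, n = 3 each), a log2 change of 0.42 ± 0.08. Nags makes N-acetylglutamate, the activator of carbamoyl phosphate synthetase, and read 1885, 1521 and 1799 in knock-in, against 1252, 1402 and 1151 in wild-type mice (log2 change 0.45 ± 0.12; limma adjusted p = 0.0312). Its call was lost in 4 of the 6 fits that leave out a mouse (knock-in 1 and 5, wild-type 2 and 6; limma adjusted p = 0.0852 to 0.116) and with centred arrays (limma adjusted p = 0.0529). Cps1, carbamoyl phosphate synthetase and the rate-limiting enzyme, was among the brightest signals of the arrays. It read 16078, 15494 and 14983 in knock-in mice and 14092, 13758 and 13750 in wild-type mice, which do not overlap, but with a log2 change of 0.16 ± 0.05 it missed the threshold (limma adjusted p = 0.0601).

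Other genes that serve the cycle were read from a list of carriers, side reactions and nitrogen transport. Of 12 tested, 4 were higher and 5 lower (median log2 change -0.06), against 13.0% higher and 13.7% lower of all tested genes. Car5a, the mitochondrial carbonic anhydrase that supplies bicarbonate for carbamoyl phosphate, read 282, 399 and 300 in knock-in and 1594, 1528 and 1677 in wild-type mice, so that it changed by -2.25 ± 0.14 in log2 (4.76-fold lower, limma adjusted p = 0.000194). Slc7a2, a carrier of arginine and other cationic amino acids, rose by 0.96 ± 0.10 on the log2 scale, and Aqp9, a channel for glycerol and urea, changed by -0.98 ± 0.11. Named after their values were seen, the mitochondrial ornithine carrier gene Slc25a15 averaged 6346 in knock-in and 3482 in wild-type mice (log2 change 0.86 ± 0.10; limma adjusted p = 0.00139) and Glul, glutamine synthetase of the hepatocytes around the central vein, 4203 and 6929 (log2 change -0.74 ± 0.13; limma adjusted p = 0.00678). Glul was read from the brighter of its 2 probe sets. At the mitochondrial membrane, the carrier gene Slc25a15 was thus higher while Otc, which uses the ornithine it brings in, was lower.

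Among the enzymes that pass nitrogen to the cycle, 3 of 5 tested rose and 1 fell. Got1, the cytosolic aspartate aminotransferase, read 18659, 17254 and 18406 in knock-in mice, against 7642, 9681 and 9806 in wild-type mice (log2 change 1.01 ± 0.10; 2.01-fold higher; limma adjusted p = 0.000997). Its mitochondrial counterpart Got2 read 6970, 7338 and 6246 in knock-in and 10288, 8361 and 9800 in wild-type mice (log2 change -0.47 ± 0.10; limma adjusted p = 0.0135). The knock-in mice were all above the wild-type mice at Got1 and all below them at Got2. A second Got2 probe set gave -0.46 ± 0.10, and the Got2 call was lost without wild-type replicate 2 or 6 (limma adjusted p = 0.0507 to 0.0516). The log2 difference Got2 minus Got1 within an array averaged -1.40 in knock-in and 0.07 in wild-type mice, a shift of -1.47 (exact two-sided permutation test, p = 0.10, the smallest that 3 mice against 3 can give; adjusted p = 0.167 over 5 pairs of related enzymes). Slc25a13, the carrier that exports aspartate from mitochondria (named after its values were seen), averaged 1942 in knock-in and 2947 in wild-type mice, a log2 change of -0.63 ± 0.17 (limma adjusted p = 0.0348), a call lost without any of 5 single mice (all but knock-in replicate 3; limma adjusted p = 0.0670 to 0.118).

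The alanine aminotransferases moved the same way in both compartments. Gpt, the cytosolic form, read 2035, 1762 and 2085 in knock-in and 1185, 1019 and 1150 in wild-type mice (log2 change 0.80 ± 0.11; limma adjusted p = 0.00243). Gpt2, the mitochondrial form, read 6247, 5841 and 8219 in knock-in and 3384, 4896 and 4375 in wild-type mice (log2 change 0.68 ± 0.17; limma adjusted p = 0.0242). Neither overlapped between the genotypes, and the Gpt2 call was lost with 4 of 6 mice left out in turn (knock-in 1 and 5, wild-type 2 and 6; limma adjusted p = 0.0551 to 0.0661). The shift of Gpt2 minus Gpt between the genotypes was -0.12 (exact two-sided permutation test, p = 0.70). Glud1, glutamate dehydrogenase, which frees ammonia from glutamate, averaged 6303 ± 272 in knock-in and 6564 ± 505 in wild-type mice (SD, n = 3 each), with a 95% interval of the log2 change of -0.24 to 0.13.

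**Figure D2:**
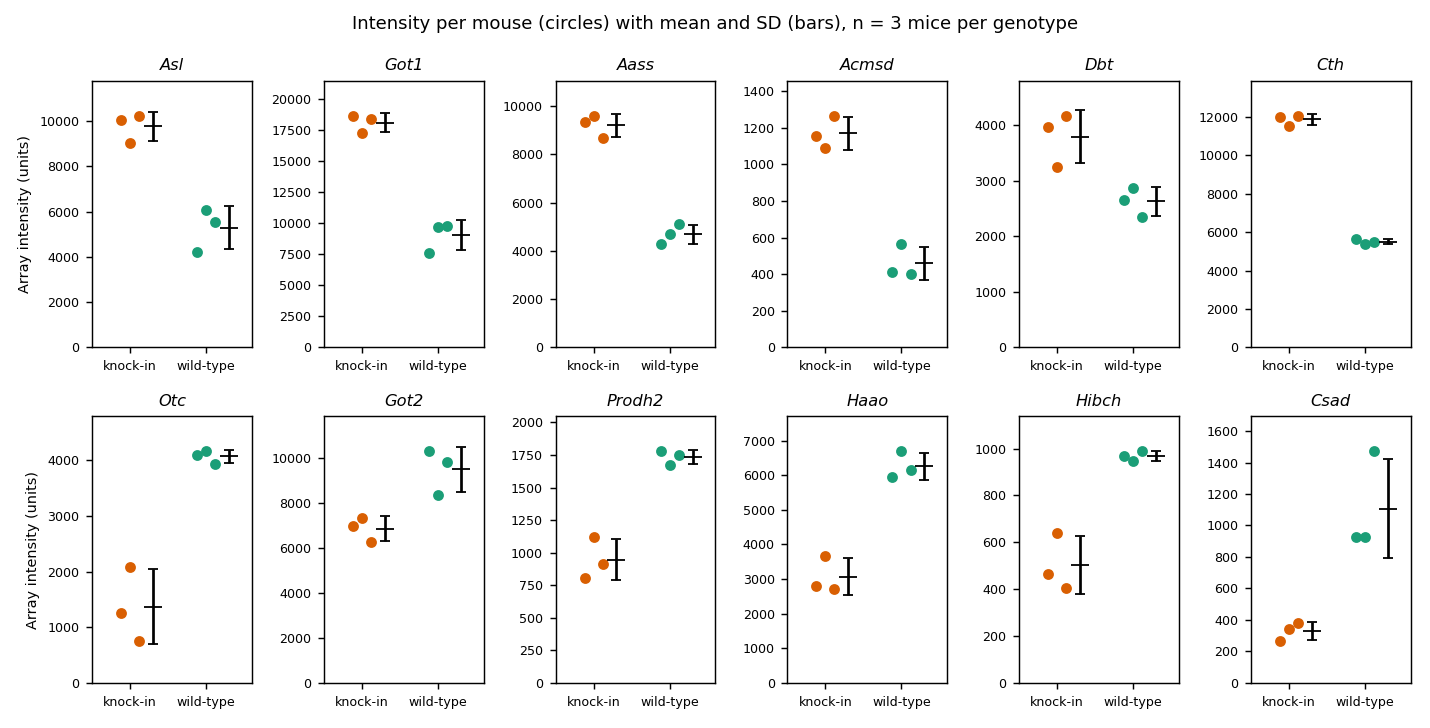
Array intensity (y axis, from 0) of 12 genes in each knock-in (left, orange) and wild-type (right, green) mouse, with the mean and SD of 3 mice beside the circles. In the upper row, from Asl to Cth, every knock-in mouse lies above every wild-type mouse, and in the lower row, from Otc to Csad, every knock-in mouse lies below.

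Agxt and Agxt2 both remove glyoxylate by transamination with alanine, Agxt chiefly in peroxisomes and Agxt2 in mitochondria. Agxt read 3680, 5549 and 2827 in knock-in and 2394, 1694 and 2614 in wild-type mice. These values did not overlap but spread widely, and the log2 change of 0.81 ± 0.26 missed the threshold (limma adjusted p = 0.0560). It passed without knock-in replicate 5 (limma adjusted p = 0.0283), which read lowest of the knock-in mice. Agxt2 read 1391, 1486 and 1442 in knock-in and 2022, 1674 and 1943 in wild-type mice (log2 change -0.38 ± 0.10; limma adjusted p = 0.0299), a call that was lost with 4 of 6 mice left out in turn (knock-in 1 and 5, wild-type 2 and 6; limma adjusted p = 0.0692 to 0.112). The shift of Agxt2 minus Agxt was -1.19 (exact two-sided permutation test, p = 0.10, the smallest possible; adjusted p = 0.167).

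In histidine breakdown, 3 of 4 genes rose and 0 fell. Hal, histidine ammonia-lyase, starts the route and read 9887, 8044 and 9865 in knock-in, against 6613, 6802 and 6547 in wild-type mice (log2 change 0.47 ± 0.09; limma adjusted p = 0.00965). Amdhd1, the imidazolonepropionase of the third step, read 3022, 2623 and 3023 in knock-in and 2208, 2302 and 2399 in wild-type mice (log2 change 0.32 ± 0.09; limma adjusted p = 0.0370). Ftcd, which hands the last one-carbon unit to folate, read 3697, 3291 and 3968 in knock-in and 2884, 2439 and 3000 in wild-type mice (log2 change 0.40 ± 0.11; limma adjusted p = 0.0371). At each of the 3 genes every knock-in mouse was above every wild-type mouse. Uroc1, the urocanase between Hal and Amdhd1, lay the other way, at 1838, 2042 and 2004 in knock-in and 2145, 2604 and 2345 in wild-type mice, without passing (log2 change -0.26 ± 0.10; limma adjusted p = 0.0961), and passed with centred arrays (limma adjusted p = 0.0457). The calls of Amdhd1 and Ftcd were lost with centred arrays (limma adjusted p = 0.0792 and 0.0813) and without any of 5 single mice, all but knock-in replicate 3 (limma adjusted p = 0.0787 to 0.130 and 0.0564 to 0.114).

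The aromatic routes held 11 tested genes, of which 3 were higher and 2 lower, with a median log2 change of -0.04. That is 45.5% called, 27.3% higher and 18.2% lower. These shares lie near those of all tested genes with a mean of at least 536 (46.2%, 21.9% and 24.4%). In tyrosine breakdown the first enzyme rose and the middle of the route was not called. Tat, tyrosine aminotransferase, a classical glucocorticoid-induced gene of liver, read 20045, 18121 and 19240 in knock-in, against 10256, 13886 and 14210 in wild-type mice (log2 change 0.60 ± 0.12; limma adjusted p = 0.0122). All knock-in mice exceeded all wild-type mice, and the call was lost without knock-in replicate 1 (limma adjusted p = 0.0511). The next enzymes Hpd and Hgd and the last, Fah, had log2 changes of 0.02 ± 0.06, 0.03 ± 0.06 and -0.04 ± 0.06. Fah read 8385, 8315 and 8463 in knock-in and 8672, 8539 and 8708 in wild-type mice, close together without overlap. The 95% intervals ran from -0.13 to 0.17 for Hpd, from -0.12 to 0.18 for Hgd and from -0.17 to 0.09 for Fah, and Hpd and Hgd turned below 0 with centred arrays. Gstz1, the maleylacetoacetate isomerase just before Fah, read 2844, 2737 and 2095 in knock-in and 5323, 3567 and 4726 in wild-type mice (log2 change -0.82 ± 0.17; limma adjusted p = 0.0134), with no overlap.

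In tryptophan breakdown, the first enzyme rose and so did the one that draws the route away from NAD synthesis, while others fell or did not pass. Tdo2, tryptophan dioxygenase, opens the ring of tryptophan and averaged 10722 ± 391 in knock-in and 8181 ± 149 in wild-type mice (SD, n = 3 each), a log2 change of 0.39 ± 0.06 (limma adjusted p = 0.00370). Haao, which makes the precursor of quinolinate, read 2812, 3673 and 2725 in knock-in and 5935, 6694 and 6145 in wild-type mice (log2 change -1.03 ± 0.12; limma adjusted p = 0.00171). Acmsd, a decarboxylase that acts on the same intermediate before it becomes quinolinate, read 1153, 1090 and 1266 in knock-in and 414, 564 and 402 in wild-type mice. Acmsd had the largest rise of the 47 genes, by 1.33 ± 0.15 in log2 (2.52-fold higher, limma adjusted p = 0.00127). The steps between Tdo2 and Haao were not called. Kynu, kynureninase, read 3182, 4207 and 2078 in knock-in and 3965, 3969 and 4061 in wild-type mice (log2 change -0.40 ± 0.23; limma adjusted p = 0.251), and of the knock-in mice only replicate 3 reached the wild-type values. Kmo, kynurenine hydroxylase of the outer mitochondrial membrane, changed by -0.39 ± 0.14 (limma adjusted p = 0.0835) and the formamidase gene Afmid by -0.14 ± 0.09 (limma adjusted p = 0.314). Without knock-in replicate 3, Kynu and Kmo were called lower (limma adjusted p = 0.0301 and 0.00485), and the aromatic genes called lower then numbered 4.

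Of 8 other tested genes of aromatic amino acid metabolism, 1 was higher and 5 lower, with a median log2 change of -0.63. Among all tested genes, 13.0% were higher and 13.7% lower. Ido2, a relative of Tdo2 in function, read 170, 234 and 174 in knock-in and 1616, 1628 and 1599 in wild-type mice (log2 change -2.98 ± 0.13; 7.89-fold lower; limma adjusted p = 6.95e-05). Qprt, which takes quinolinate into NAD synthesis, averaged 1041 in knock-in and 2313 in wild-type mice (log2 change -1.14 ± 0.10; limma adjusted p = 0.000693). Kyat1, a kynurenine aminotransferase, changed by -1.36 ± 0.17. The dioxygenase gene Tdo2 was thus higher and Ido2 lower, and both Haao and Qprt on the way to NAD were lower, beside the higher Acmsd. The recycling enzymes of the phenylalanine hydroxylase cofactor, Qdpr and Pcbd1 (named after their values were seen), changed by -0.69 ± 0.13 and -0.56 ± 0.08, with limma adjusted p = 0.00789 and 0.00340.

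The branched-chain route was the one with most genes, 12 tested, of which 2 rose and 5 fell (median log2 change -0.17). The branched-chain keto acid dehydrogenase commits the carbon of leucine, isoleucine and valine to breakdown, and the kinase Bckdk switches it off by phosphorylation. Dbt, the core subunit of the complex, read 3971, 3251 and 4171 in knock-in, against 2661, 2877 and 2353 in wild-type mice (log2 change 0.52 ± 0.12; limma adjusted p = 0.0188). Bckdhb, the beta subunit of its decarboxylase, read 2780, 2653 and 2621 in knock-in and 2146, 1977 and 2176 in wild-type mice (log2 change 0.35 ± 0.08; limma adjusted p = 0.0183). The genotypes did not overlap at either gene, while the alpha subunit gene Bckdha read 1674, 1416 and 2120 in knock-in and 1716, 1955 and 1857 in wild-type mice and overlapped (95% interval of the log2 change -0.45 to 0.25). The shift of Bckdhb minus Bckdha was 0.46 (exact two-sided permutation test, p = 0.20; adjusted p = 0.25). Bckdk read 179, 221 and 182 in knock-in and 342, 316 and 312 in wild-type mice (log2 change -0.70 ± 0.11; limma adjusted p = 0.00397). The kinase gene was thus lower where 2 of the 3 subunit genes of the list were higher. Dld, a further subunit gene outside the list (named after its values were seen), was not called (log2 change -0.04 ± 0.12; limma adjusted p = 0.8365). The subunit calls were less firm than that of the kinase. Dbt was lost with 4 of 6 mice left out in turn (knock-in 1 and 5, wild-type 2 and 6; limma adjusted p = 0.0554 to 0.0744), and Bckdhb with 3 of them (knock-in 1, wild-type 2 and 6; limma adjusted p = 0.0523 to 0.0771). With any of these 3 mice left out, 0 genes of the route were called higher, and without knock-in replicate 5 it was 1.

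Further down the route 4 genes fell, Hibch and Hibadh of valine breakdown and Pcca and Pccb of propionate carboxylation, while the leucine genes and the valine gene Aldh6a1 were not called. Hibch, which frees 3-hydroxyisobutyrate from its coenzyme A in valine breakdown, read 465, 641 and 403 in knock-in and 970, 946 and 989 in wild-type mice (log2 change -0.95 ± 0.16; limma adjusted p = 0.00594). Hibadh, the next enzyme of valine breakdown, read 2360, 2978 and 2134 in knock-in and 4099, 4023 and 4289 in wild-type mice (log2 change -0.74 ± 0.13; limma adjusted p = 0.00561). At both genes the wild-type mice lay close together and knock-in replicate 3 was the highest of its genotype. Pcca and Pccb, the subunits of the propionyl-CoA carboxylase that valine and isoleucine share with methionine and odd-chain fat, changed by -0.62 ± 0.11 and -0.56 ± 0.15 (limma adjusted p = 0.00671 and 0.0282). The Pccb call was lost without any of 5 single mice, all but knock-in replicate 3 (limma adjusted p = 0.0581 to 0.10). The leucine enzymes Ivd, Mccc1 and Mccc2 had log2 changes of -0.06 ± 0.08, -0.19 ± 0.12 and -0.05 ± 0.08, and Aldh6a1, the last dehydrogenase of valine breakdown, -0.15 ± 0.08, with limma adjusted p between 0.247 and 0.732.

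Of 12 other tested branched-chain and propionate genes, 0 were higher and 4 lower (median log2 change -0.18). Among all tested genes, 13.0% were higher and 13.7% lower. Bcat2, the mitochondrial transaminase that starts branched-chain breakdown, averaged 316 in knock-in and 466 in wild-type mice (log2 change -0.54 ± 0.09; limma adjusted p = 0.00570). Abat, the GABA transaminase, changed by -0.57 ± 0.10 (limma adjusted p = 0.00582). Acadsb, an acyl-CoA dehydrogenase of isoleucine breakdown, changed by -0.46 ± 0.13 (limma adjusted p = 0.0367) and Mmut (named after its values were seen), methylmalonyl-CoA mutase after Pcca and Pccb, by -0.39 ± 0.12 (limma adjusted p = 0.0444). These last 2 calls were each lost without any of 5 single mice, all but knock-in replicate 3 (limma adjusted p = 0.0837 to 0.115 and 0.0891 to 0.142).

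In proline breakdown 2 of 3 genes fell. Prodh2, which oxidises hydroxyproline, read 805, 1117 and 913 in knock-in and 1779, 1671 and 1753 in wild-type mice (log2 change -0.88 ± 0.13; limma adjusted p = 0.00332). Aldh4a1, the dehydrogenase that both proline and hydroxyproline pass through, read 1699, 1879 and 1879 in knock-in and 2729, 2412 and 2580 in wild-type mice (log2 change -0.50 ± 0.09; limma adjusted p = 0.00734). Neither overlapped between the genotypes. Prodh, the proline dehydrogenase, read 3056, 2944 and 3253 in knock-in and 2695, 2776 and 2665 in wild-type mice and did not pass (log2 change 0.18 ± 0.08; limma adjusted p = 0.130). The shift of Prodh2 minus Prodh was -1.06 (exact two-sided permutation test, p = 0.10, the smallest possible; adjusted p = 0.167). Aass, the enzyme that starts lysine breakdown in mitochondria, read 9345, 9592 and 8665 in knock-in and 4284, 4687 and 5091 in wild-type mice, and so changed by 0.97 ± 0.09 in log2 (1.96-fold higher, limma adjusted p = 0.000624).

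The sulfur route held the smallest adjusted p of the 47 genes, that of Cth. Cth, cystathionine gamma-lyase, makes cysteine from cystathionine and can release hydrogen sulfide. It read 11995, 11536 and 12054 in knock-in, against 5639, 5369 and 5497 in wild-type mice, with little spread in either genotype (log2 change 1.11 ± 0.06; 2.15-fold; limma adjusted p = 0.000118). Cdo1, the dioxygenase that commits cysteine to sulfinate, read 10588, 9909 and 9771 in knock-in and 7099, 7700 and 8458 in wild-type mice (log2 change 0.38 ± 0.08; limma adjusted p = 0.0127), a call lost without knock-in replicate 1 (limma adjusted p = 0.0538). Csad, the decarboxylase that takes sulfinate on to taurine, read 269, 342 and 380 in knock-in and 925, 924 and 1472 in wild-type mice (log2 change -1.68 ± 0.21; 3.19-fold lower; limma adjusted p = 0.00191). Along the path from cystathionine to taurine, the genes of the earlier enzymes Cth and Cdo1 were thus higher and that of Csad lower. Cbs, which makes cystathionine, overlapped between the genotypes, with 4807 ± 266 in knock-in and 5035 ± 471 in wild-type mice (SD, n = 3 each; 95% interval of the log2 change -0.28 to 0.15).

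Of 22 other tested genes of sulfur, glycine and lysine metabolism, 3 were higher and 8 lower (median log2 change -0.29). The share higher is close to that of all tested genes, of which 13.0% were higher and 13.7% lower. The serine hydroxymethyltransferases, which interconvert serine and glycine, fell in both compartments. Shmt1, the cytosolic form, read 656, 766 and 596 in knock-in and 1911, 2162 and 2128 in wild-type mice (log2 change -1.60 ± 0.12; limma adjusted p = 0.000358). Shmt2, the mitochondrial form, averaged 1027 in knock-in and 2480 in wild-type mice (log2 change -1.26 ± 0.12; limma adjusted p = 0.000869). Of the glycine cleavage system, Gcsh changed by -0.74 ± 0.10 (limma adjusted p = 0.00253) and, named after their values were seen, Amt by -1.35 ± 0.22 and Gldc by 0.62 ± 0.13 (limma adjusted p = 0.00499 and 0.0125), so that its subunits moved in both directions.

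Calls were also counted by the place and the order of the enzymes. Of 24 tested genes of mitochondrial enzymes, 5 were higher and 10 lower (20.8% and 41.7%, with a median log2 change of -0.17). Of 22 whose enzymes lie mainly outside mitochondria, 12 were higher and 3 lower (54.5% and 13.6%, median 0.35). Of all tested genes 13.0% were higher and 13.7% lower. Of the tested genes with a mean intensity of at least 536, 21.9% were higher and 24.4% lower. The mitochondrial genes that rose were Nags, Gpt2, Bckdhb, Dbt and Aass, and those outside that fell were Gstz1, Haao and Csad. With knock-in mouse 1, wild-type mouse 2 or wild-type mouse 6 left out, 1 of the mitochondrial genes was called higher, without knock-in replicate 5 it was 2, and the number lower ran from 7 to 11 over the 6 mice left out. Of 10 tested genes at the entry or rate-limiting step of their route, 7 rose (Tat, Tdo2, Hal, Aass, Cdo1, Dbt and Bckdhb) and 0 fell, with Cps1, Prodh and Bckdha not called. The entry steps were assigned with results known, and Dbt, Bckdhb and Bckdha belong to the same complex. Prodh2, which oxidises hydroxyproline and was lower, was not counted as an entry step, nor was Cbs, which was not called. This count covers genes of the list of 51 only. Outside it Bcat2 and Ido2, which also act at a first step, were lower, as given above. The 7 were 3 without knock-in replicate 1 and 2 when a 1.5-fold change was also asked for. By compartment, all 12 tested branched-chain genes, 2 higher and 5 lower, are among the mitochondrial ones, so compartment cannot be told apart from route there. The compartment counts also cover the list only. Outside it, the cytosolic Shmt1 and the mitochondrial Shmt2 and Car5a were lower, and the mitochondrial Slc25a15 was higher. These differences between groups of genes were described and not tested.

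**Figure D3:**
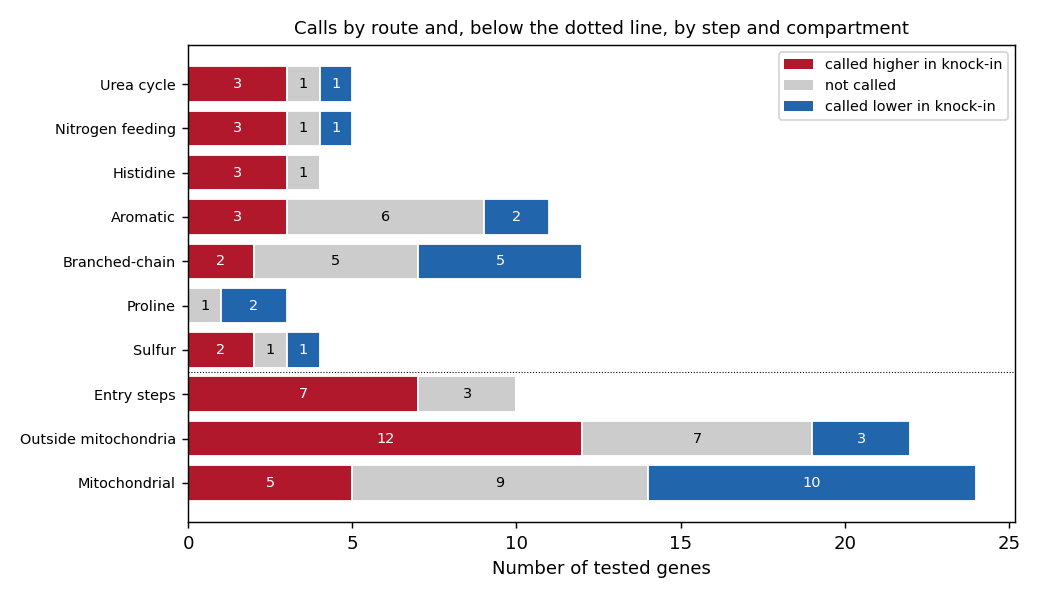
Number of tested genes (x axis) called higher (red), not called (grey) and called lower (blue) in knock-in against wild-type liver, for 7 routes and, below the dotted line, for entry steps and by compartment. Entry steps, among which Prodh2 and Cbs were not counted, show 7 higher and 0 lower genes. Mitochondrial genes show 5 higher and 10 lower, against 12 higher and 3 lower outside mitochondria. All 12 tested branched-chain genes are among the mitochondrial ones.

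The routes differed in how the knock-in mice stood to the wild-type mean. Averaged over the genes of a route as log2(intensity + 16) minus the wild-type mean, the branched-chain genes lay at -0.31, -0.18 and -0.32 in knock-in replicates 1, 3 and 5, against 0.00, -0.01 and 0.01 in wild-type replicates 2, 4 and 6. The nitrogen-feeding genes lay at 0.40, 0.34 and 0.44 in the knock-in mice, against -0.06, -0.02 and 0.07 in the wild-type mice. The urea cycle and aromatic routes overlapped on this average, since genes that rose and genes that fell offset each other. Urea cycle genes averaged 0.09, 0.12 and -0.06 in the knock-in and -0.08, 0.09 and -0.01 in the wild-type mice, and aromatic genes -0.03, 0.04 and -0.13 in the knock-in and -0.02, 0.02 and -0.01 in the wild-type mice. Sulfur genes averaged -0.11, -0.08 and 0.00 in the knock-in and -0.06, -0.11 and 0.16 in the wild-type mice. Knock-in replicate 3 was the mouse nearest to the wild-type mean at 25 of the 30 called genes, and without it 17 genes were called higher and 15 lower.

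**Figure D4:**
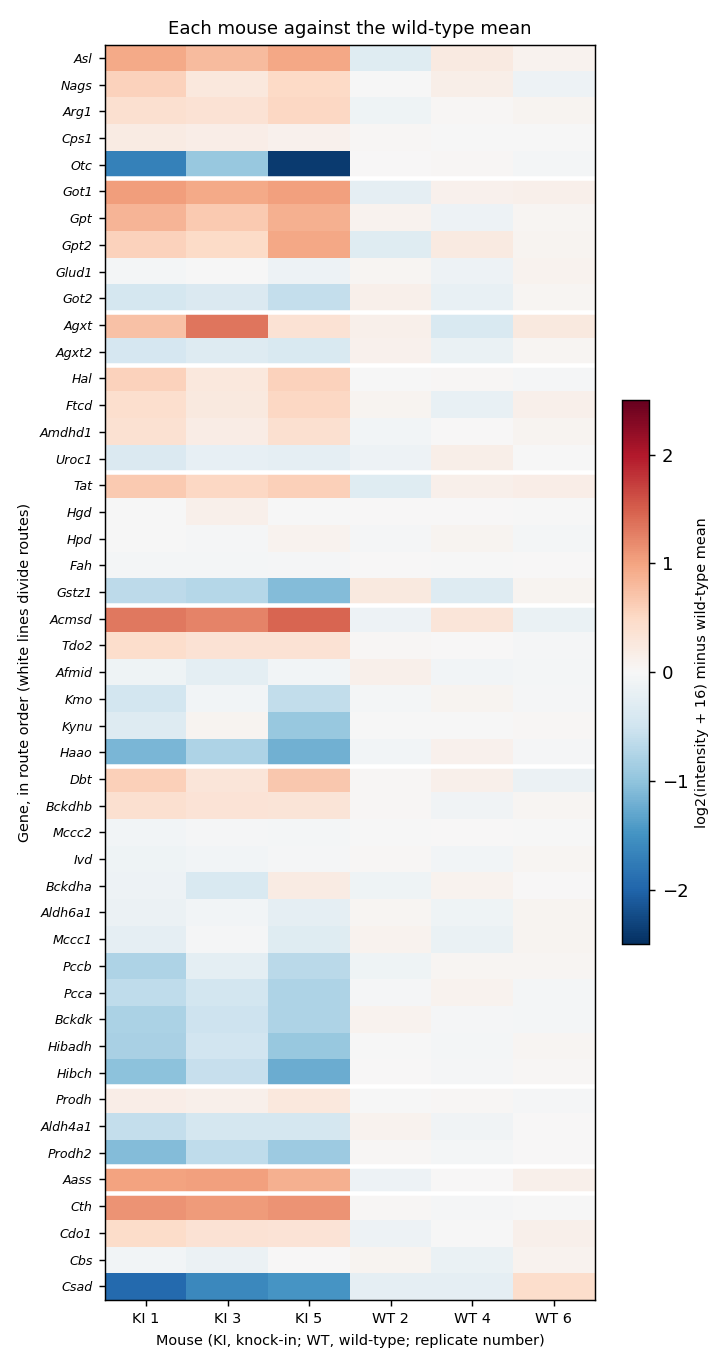
Each tested gene (rows, in route order) in each mouse (columns, knock-in left of wild-type), coloured by log2(intensity + 16) minus the wild-type mean (red above, blue below). Knock-in replicate 3 is paler than the other knock-in mice at most called genes, with Otc (2089, against 1253 and 761) and Hibch (641, against 465 and 403) as examples.

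Known regulators of these genes were read in the same fit. Of 16 tested, 6 were higher and 4 lower (median log2 change 0.18), against 13.0% higher and 13.7% lower of all tested genes. Ppargc1a, the coactivator of fasting metabolism, read 6447, 5678 and 5635 in knock-in and 871, 1433 and 1346 in wild-type mice (log2 change 2.30 ± 0.18). Hnf4a, a nuclear receptor of hepatocyte identity, read 8948, 8707 and 9461 in knock-in and 4529, 5192 and 5479 in wild-type mice (log2 change 0.84 ± 0.09; limma adjusted p = 0.00110). Ppara, the fatty acid receptor that is known to restrain several of these enzymes, read 1245, 1543 and 881 in knock-in and 3709, 3443 and 3509 in wild-type mice (log2 change -1.56 ± 0.19). Klf15, a fasting-induced activator of amino acid breakdown (named after its values were seen), averaged 2893 in knock-in and 1896 in wild-type mice (log2 change 0.62 ± 0.17; limma adjusted p = 0.0304), a call lost with 4 of 6 mice left out in turn (knock-in 1 and 5, wild-type 2 and 4; limma adjusted p = 0.0634 to 0.0906). Also named after their values were seen, Crtc2, a coactivator in the glucagon response, rose by 1.01 ± 0.14, Atf4, the factor of amino acid shortage, by 0.80 ± 0.14, and Foxo1 by 0.89 ± 0.20, on the log2 scale. The Foxo1 call was lost without knock-in replicate 5 (limma adjusted p = 0.0535). Cebpa (named after its values were seen), known in mouse liver as an activator of urea cycle genes, changed by -1.02 ± 0.13 (limma adjusted p = 0.00190). The glucagon receptor gene Gcgr (named after its values were seen) changed by -0.62 ± 0.11 (limma adjusted p = 0.00756). Nr1h4 (named after its values were seen) changed by -1.51 ± 0.24 (limma adjusted p = 0.00471). Nr3c1, the glucocorticoid receptor gene (named after its values were seen), did not pass (95% interval -0.42 to 0.19). Regulators thus moved in both directions, as the enzymes did.

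The promoters of genes that moved are shown to let a reader see what stands before them. RefSeq promoters of GRCm38.p6, with 250 bases before and 50 after a gene's start, were found for 40 of the 51 genes, 6 of them with more than 1 start. The motifs TGACGTCA (the cyclic AMP response element), its core TGACG, which lies within it, TGTTCT (part of the site of the glucocorticoid receptor), TTGCGCAA (a C/EBP palindrome) and CAAAGTCCA (an HNF4 site) were searched on both strands. Promoters were found for 11 of the 17 genes called higher, 13 of 13 called lower and 15 of 17 not called, so most gaps fall on higher genes. TGACG was found at 4 of 11 genes called higher, 3 of 13 called lower and 0 of 15 not called. It was found in 23.0% of all 27025 genes of the table. TGTTCT was found at 1 of 11 higher, 3 of 13 lower and 3 of 15 uncalled genes, and in 21.3% of all genes. TGACGTCA and TTGCGCAA were at 0 of the 39 genes and in 2.03% and 0.207% of all genes. CAAAGTCCA was found at 1 of 13 lower genes, Agxt2, and in 0.555% of all genes. Printed below, 5′ to 3′, with motif matches in capitals, are the promoters of Got1, which rose by over 2-fold, of Otc, Csad and Haao, which fell by over 2-fold, and of Agxt2 for its match, which is the HNF4 letters.
Got1, chr19:43524556-43524855, minus strand: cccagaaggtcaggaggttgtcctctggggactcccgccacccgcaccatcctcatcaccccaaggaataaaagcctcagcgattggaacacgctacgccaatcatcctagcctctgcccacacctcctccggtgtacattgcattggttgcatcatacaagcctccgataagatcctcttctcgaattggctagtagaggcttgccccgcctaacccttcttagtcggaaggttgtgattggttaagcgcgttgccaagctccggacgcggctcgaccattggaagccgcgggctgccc
Otc, chrX:10252055-10252354, plus strand: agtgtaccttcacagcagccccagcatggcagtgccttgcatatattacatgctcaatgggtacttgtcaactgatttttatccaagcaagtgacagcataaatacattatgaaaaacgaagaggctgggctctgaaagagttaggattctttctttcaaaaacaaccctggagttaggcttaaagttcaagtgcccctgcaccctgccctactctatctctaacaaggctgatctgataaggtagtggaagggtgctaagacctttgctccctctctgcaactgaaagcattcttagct
Csad, chr15:102205003-102205302, minus strand: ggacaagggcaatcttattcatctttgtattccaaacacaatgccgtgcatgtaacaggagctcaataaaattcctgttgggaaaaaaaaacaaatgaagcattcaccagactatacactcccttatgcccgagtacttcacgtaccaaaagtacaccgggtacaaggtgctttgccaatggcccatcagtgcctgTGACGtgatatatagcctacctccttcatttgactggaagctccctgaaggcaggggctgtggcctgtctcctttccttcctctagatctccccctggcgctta
Haao, chr17:83846741-83847040, minus strand: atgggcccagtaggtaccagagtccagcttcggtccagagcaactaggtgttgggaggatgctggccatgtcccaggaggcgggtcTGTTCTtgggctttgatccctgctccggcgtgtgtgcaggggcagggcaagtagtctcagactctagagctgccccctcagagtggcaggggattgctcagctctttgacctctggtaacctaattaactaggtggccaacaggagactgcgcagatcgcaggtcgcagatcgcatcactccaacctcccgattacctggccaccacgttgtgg
Agxt2, chr15:10358283-10358582, plus strand: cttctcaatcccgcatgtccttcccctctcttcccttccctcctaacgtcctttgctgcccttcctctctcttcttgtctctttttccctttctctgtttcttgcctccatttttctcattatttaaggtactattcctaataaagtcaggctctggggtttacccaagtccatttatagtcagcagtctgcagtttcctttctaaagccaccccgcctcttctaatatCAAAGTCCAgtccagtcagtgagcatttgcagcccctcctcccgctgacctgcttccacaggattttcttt
The match of Csad is TGACG, at 1 of its 2 starts, and that of Haao is TGTTCT, and the Got1 and Otc windows hold none of the 5 motifs. A match is a string of letters in a window and was not tested as a binding site.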

How the data were processed

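Liver RNA of 6 mice was hybridised to 1-colour arrays, with biotin labelling per the labels' protocols. The authors' deposited table gave 1 linear intensity, in whole numbers, per probe set and array (35512 probe sets). Summarisation, background correction and normalization are not given in the sources used here. Array medians ran from 97.0 to 104, a range of 0.0867 in log2(value + 16) (0.101 without the pseudocount), so with a limit of 0.1 on the fitted scale arrays were not rescaled. Probe sets with 1 gene symbol numbered 21789. Each gene was read from its brightest one, and the others of Got2 and Hibadh were not combined with it. The same holds for Glul and Ppargc1a, outside the list, with 2 probe sets each.

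Values were fitted as log2(value + 16), which makes the changes of dim genes look smaller than they are. Probe sets with a mean at or above the 25th percentile (38.7) were kept, 26664 in all, and tested with lmFit and eBayes (with trend) of limma 3.58.1, under R 4.3.3, as knock-in minus wild-type, and p-values were adjusted over all of them by Benjamini-Hochberg. Errors of log2 changes are standard errors. Arrays carry no depth, and 3 mice per genotype limit the precision. The mice are separate animals by their labels. The procedure was tested on simulated data over 26664 probe sets. It recovered 30% of log2 changes of 0.5, 82% of 1, 96% of 2 and 100% of 4, with 4.35% of calls false. The simulated data held far fewer changed probe sets than were called in the real data, so these rates may differ there.

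The genes, lists and routes were chosen with earlier results of these data known. The genes named by rule were the 3 of each route with the largest change and any called against the majority of its route. These are all given with values per mouse. The 3 of smallest p were named for each other list of pathway genes or regulators. Further genes of those lists were named after their values were seen and are marked so. Cell type markers were given as sums and counts of calls. A few more genes are also given per mouse to show a route's other steps. Symbols no longer current were not counted. A promoter sequence that was read is not reported here. Alternatives were other pseudocounts, normalizations, filters, priors, weights, gene summaries and thresholds, and each mouse left out. Figures were drawn with matplotlib 3.10.9.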

Additional observations from a re-analysis of the deposited data

How the results depend on the processing

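Over 19 alternatives, 15 of the 30 called genes kept their call and direction in all of them, namely Otc, Asl, Gpt, Got1, Gstz1, Haao, Acmsd, Bckdk, Hibch, Hibadh, Pcca, Prodh2, Aass, Csad and Cth. The other 15 lost their call in at least 1 alternative and 0 turned direction. Of the 17 uncalled genes, 5 were called in at least 1. When a change of at least 1.5-fold was also asked for, 8 genes were higher, 1 of them in the urea cycle, 0 in the branched-chain and 1 in the sulfur route, because most rises were smaller than that. With single mice left out, which leaves fewer samples, 9 to 17 genes were higher and 10 to 15 lower. In the urea cycle 2 to 3 were then higher and 1 lower, in the aromatic routes 2 to 3 higher and 2 to 4 lower, in the branched-chain route 0 to 2 higher and 4 to 5 lower, and in the sulfur route 1 to 2 higher and 1 lower. The pseudocounts 1 and 64, quantile normalization, the filters, the priors, array weights and the gene summaries gave 16 to 19 higher and 13 to 14 lower genes. No paired analysis was possible because the knock-in and wild-type mice share no replicate number. Dim genes are limited by the unknown background of the arrays.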
